A study of Mus musculus with 5480 samples.

Results

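A set of 10 genes of the Wnt signalling pathway was followed through the mesenchyme of the developing mouse lung: the receptors Lgr5 and Lgr6 and the response genes and inhibitors Axin2, Lef1, Nkd1, Nkd2, Notum, Apcdd1, Sfrp1 and Sfrp2. These 10 genes were chosen by name, and all 10 were among the 18072 genes of the deposited table. Mesenchymal cells of the distal lung had been sorted and sequenced one by one in plates, giving 5480 cells from 10 mice. The 5 groups were mice in normal air at embryonic day 18.5 (E18.5) and at postnatal days 1, 7 and 21 (P1, P7 and P21), and mice in hyperoxia, which is breathing gas rich in oxygen, at P7. Each group held 2 mice, 1 female and 1 male, so each mouse is the only one of its sex in its group. All cells carry the tissue label distal lung and the cell type label mesenchymal. Strain, genotype, oxygen level and length of exposure are not given in the labels, and no group is labelled with a transgene or deletion. The authors had sorted the cells into 16 named subtypes, which were used as labelled.

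Wnt ligands bind Frizzled and Lrp receptors at the cell surface and keep beta-catenin from being destroyed, so that it enters the nucleus and switches on target genes together with transcription factors of the TCF/LEF family. Many targets feed back on the pathway, which makes them common readouts of its activity. In the lung, Wnt signals between epithelium and mesenchyme are known to guide branching, smooth muscle formation and the making of alveoli. Lgr5 and Lgr6 are receptors for R-spondins, secreted proteins that raise a cell's sensitivity to Wnt by removing the enzymes Znrf3 and Rnf43 from around its receptors. Axin2 is a scaffold of the complex that destroys beta-catenin. Nkd1 and Nkd2 bind Dishevelled inside the cell and dampen the signal. Notum is a secreted enzyme that strips the lipid from Wnt proteins, and Apcdd1 is a membrane protein that inhibits Wnt at the receptors. Lef1 is one of the TCF/LEF factors and a target itself. Sfrp1 and Sfrp2 are secreted and bind Wnt ligands.

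In the mouse annotation GENCODE M21, on build GRCm38, Lgr5 lies at chr10:115450311-115587780 and Lgr6 at chr1:134983301-135105276. Axin2 lies at chr11:108920349-108950783, Lef1 at chr3:131110471-131224356, Nkd1 at chr8:88521354-88594884 and Nkd2 at chr13:73818534-73847631. Notum lies at chr11:120653788-120661175, Sfrp1 at chr8:23411502-23449632 and Sfrp2 at chr3:83766321-83774316. The values below count reads over whole genes, so they do not tell apart exons, introns or isoforms.

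RefSeq promoter windows (build GRCm38.p6) were searched for the sequence that TCF/LEF factors bind, which was spelled as CTTTGAA or as CTTTGAT, and further as CTTTGTA or as CTTTGTT, on both strands of the 250 bases before each start. Windows matched 6 of the 10 genes: 4 windows for Lef1 and 1 window each for Axin2, Lgr6, Nkd1, Nkd2 and Sfrp2. The only match among them was in 1 Lef1 window, and it is shown because Lef1 is both a factor of this family and one of its targets. The capitals mark the motif, which reads CTTTGTA on the opposite strand. It lies inside that window and begins 147 bases before the transcription start. The stretch is chr3:131156127-131156173 on the + strand, and it overlaps 0 annotated exons while 7 annotated Lef1 transcripts span it.
Lef1: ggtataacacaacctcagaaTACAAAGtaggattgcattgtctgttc
Of all 32851 windows, 4874 (14.8%) held 1 of these spellings. A match describes letters only, and its absence from the other 5 genes' windows says nothing about binding.

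The depth was 39358 to 5177020 reads per cell, with a median of 774305. The labels name 9 sequencing runs. In the mesenchymal sort, hyperoxic cells shared 0 runs with cells in air, so hyperoxia and run cannot be told apart there. Over all sorts 1 run was shared, with 9 of the 1060 hyperoxic cells and 14 P7 cells in air, all from the CD31 sort. For cells of that mesenchymal sort, the air males of all 4 ages shared 1 run, and the air females lay in 3 runs, with E18.5 and P1 together. Values within a run are therefore given beside the age results that passed. By the sort names, 5409 cells came from a mesenchymal sort, 69 from a CD31 sort and 2 from a CD45 sort. Collagen genes and the receptors Pdgfra and Pdgfrb were detected in every group, with a summed level of 5881 to 22590 CPM (reads of a gene per 1e6 reads of its library). In sums over all cells of a mouse, fewer cells of a type and less RNA per cell cannot be told apart. Subtypes had been named from the same cells, so differences between subtypes are described without a test. They rest on 64 sums of reads, 1 for each mouse and subtype with at least 10 cells, which covered 15 subtypes. A subtype's mean is over every age and treatment in which it had enough cells, so its place in an order depends on which groups it holds.

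Lgr6 was a smooth muscle and myofibroblast gene in these cells. It was read at 314 CPM ± 93.3 (SD, n = 6 sums) in early airway smooth muscle and at 292 ± 23.2 (n = 2) in the myofibroblast and smooth muscle precursors, and these means lie within 1 SD of each other. Airway smooth muscle followed at 146 ± 45.5 (n = 2), then striated muscle at 99.9 (n = 1), vascular smooth muscle at 60.0 ± 37.8 (n = 8), myofibroblasts at 40.4 ± 35.3 (n = 6) and proliferating myofibroblasts at 37.0 ± 17.9 (n = 3). All 8 remaining subtypes, which are the fibroblasts and the pericytes, had means between 0.017 and 0.894 CPM. In early airway smooth muscle, 247 of 286 cells (86.4%; 95% Wilson interval 81.9 to 89.9) had a read of Lgr6, against 25 of 1618 early alveolar fibroblasts (1.55%; 1.05 to 2.27). These intervals, and those of shares below, pool the cells of several mice and leave out the spread between mice. Median depths were 846224 and 678486 reads per cell, and after thinning every cell to 100000 reads the shares were 81.3% and 0.345%.

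Lgr5 was spread differently, though it shared airway smooth muscle and the myofibroblast and smooth muscle precursors with Lgr6. It was highest in airway smooth muscle, a subtype of P21, at 93.0 CPM ± 48.6 (n = 2), and next in early adventitial fibroblasts at 64.3 ± 54.7 (n = 8), the cells around bronchi and large vessels. The latter mean joins unlike groups: 144 CPM ± 31.9 at E18.5, 61.5 ± 18.7 at P1, 39.0 ± 19.8 at P7 in air and 12.9 ± 2.39 in hyperoxia (n = 2 each). Both E18.5 values, 121 and 166 CPM, lay above the airway muscle mean, and 88.5% and 72.9% of the reads behind them came from 1 cell of each mouse. The precursors of myofibroblasts and smooth muscle had 27.4 ± 29.2 (n = 2, 48.0 in the female and 6.77 in the male), and adventitial fibroblasts had 18.9 ± 11.7 (n = 2). None of these 4 neighbours in the order differed by more than its spread. Proliferating myofibroblasts followed, beyond that spread, at 6.72 ± 2.58 (n = 3). The other 10 subtypes had means from 0.132 to 3.43 CPM, among them early airway smooth muscle at 0.606 ± 1.12 (n = 6). Over all groups joined, the highest mean of Lgr6 was thus in early airway smooth muscle and that of Lgr5 in airway smooth muscle.

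Many cells had a single read of Lgr5. In each of the 5 groups the median over cells with an Lgr5 read was 1 read. Early alveolar fibroblasts had a read in 175 of 1618 cells (10.8%; 9.39 to 12.4) and early adventitial fibroblasts in 117 of 598 (19.6%; 16.6 to 22.9), at median depths of 678486 and 769564 reads. At a fixed 100000 reads per cell these shares were 1.69% and 11.5%. Counting only cells with at least 10 CPM of Lgr5 gave 4 early alveolar fibroblasts (0.247%), 60 early adventitial fibroblasts (10.0%), 11 of 241 adventitial fibroblasts (4.56%) and 19 of 113 airway smooth muscle cells (16.8%). The mean level in early alveolar fibroblasts was 0.139 CPM. The share of cells with a stray read was not measured, and levels rather than such shares are used for Lgr5.

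Reads of both receptors in 1 cell were found in the muscle lineage. Of 39 adventitial fibroblasts with an Lgr5 read, 0 had an Lgr6 read, which allows a share of up to 7.69%. Of 117 early adventitial fibroblasts with an Lgr5 read, 0 had one of Lgr6, which allows up to 2.56%. Lgr6 was itself read in only 4 of 241 adventitial and 13 of 598 early adventitial fibroblasts. In airway smooth muscle 17 cells had both, which is 50% of the 34 cells with Lgr5 and 29.3% of the 58 cells with Lgr6. Among its 79 cells without Lgr5, 51.9% had Lgr6. In the myofibroblast and smooth muscle precursors 51 of 56 cells with Lgr5 also had Lgr6 (91.1%), against 72.4% of those without Lgr5.

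**Figure D1:**
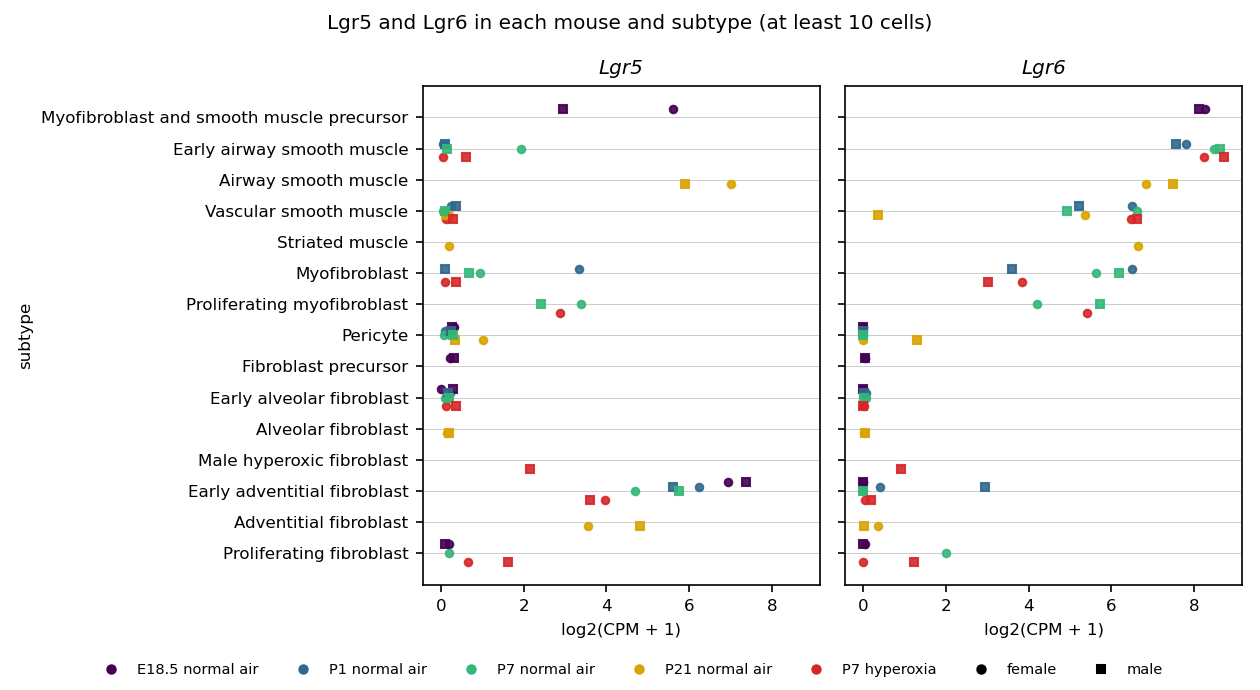
Level of Lgr5 (left) and Lgr6 (right) on the horizontal axis as log2(CPM + 1) in every sum of reads over a mouse and a subtype with at least 10 cells, by subtype on the vertical axis. Colours give the group, circles females and squares males; Lgr6 points lie high in the muscle rows and near 0 in the fibroblast rows, while Lgr5 points reach 166 CPM in early adventitial fibroblasts and 127 CPM in airway smooth muscle.

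Axin2, the most general of the feedback genes, was spread over many subtypes. Its highest mean was in the myofibroblast and smooth muscle precursors (82.8 CPM ± 10.0, n = 2) and the fibroblast precursors (72.3 ± 22.4, n = 2), followed by early alveolar (51.1 ± 43.1, n = 8) and alveolar fibroblasts (47.1 ± 14.3, n = 2). None of these 4 neighbours in the order differed beyond their spread, and adventitial fibroblasts were low at 11.0 CPM. Nkd1 reached 400 CPM ± 58.7 (n = 2) in the precursors, 283 ± 69.0 (n = 6) in early airway smooth muscle and 148 ± 27.1 (n = 6) in myofibroblasts, and both steps exceeded the larger SD. Its lowest mean was 21.6 CPM, in striated muscle (n = 1).

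Nkd2 had another pattern, with its highest means in early adventitial fibroblasts (49.1 CPM ± 35.8, n = 8) and pericytes (37.7 ± 31.7, n = 8), the cells that wrap capillaries, and only 6.88 CPM in early airway smooth muscle. Notum was highest in the precursors (139 ± 5.15, n = 2), and the step down to myofibroblasts (60.8 ± 41.8, n = 6) exceeded the spread. Early airway smooth muscle (47.8 ± 31.6) and adventitial fibroblasts (43.7 ± 33.6) came next, and vascular smooth muscle had 0 Notum reads in all 8 sums. Apcdd1 had no subtype mean above 40.5 CPM, and was at 40.5 ± 16.6 (n = 6) in early airway smooth muscle, 30.0 ± 25.4 (n = 8) in pericytes, and at or under 24.5 elsewhere.

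Lef1 had its highest means in pericytes (72.9 CPM ± 67.7, n = 8) and myofibroblasts (72.6 ± 36.2, n = 6). The precursors of myofibroblasts and smooth muscle (64.6 ± 26.7, n = 2) and proliferating myofibroblasts (51.0 ± 11.2, n = 3) followed. None of these neighbours in the order differed beyond their spread. By the median, myofibroblasts (69.0 CPM) lay above pericytes (47.4). The step from proliferating myofibroblasts to early airway smooth muscle (13.2 ± 10.3, n = 6) exceeded the spread. Airway smooth muscle, alveolar and adventitial fibroblasts had 0.0445, 0.0201 and 0.835 CPM.

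Sfrp1, like Nkd2, had its highest mean in early adventitial fibroblasts, at 110 CPM ± 62.4 (n = 8). It was at 107 ± 1.74 (n = 2) in adventitial fibroblasts, against 1.35 CPM in pericytes and 6.14 in myofibroblasts. It was not confined to adventitial cells. In the mesenchymal sort at P1 it was 43.5 CPM (female) and 36.6 (male) in alveolar fibroblasts, and 63.7 in vascular smooth muscle of the male. Sfrp2 varied widely between mice. Vascular smooth muscle had 261 CPM ± 309 (n = 8, from 5.32 to 915), and early adventitial fibroblasts had 99.5 ± 97.1 (n = 8). The male hyperoxic fibroblasts, a subtype of 55 cells from 1 mouse, had 324 CPM, and myofibroblasts had 192 ± 441 (n = 6) with a median of only 15.4.

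**Figure D2:**
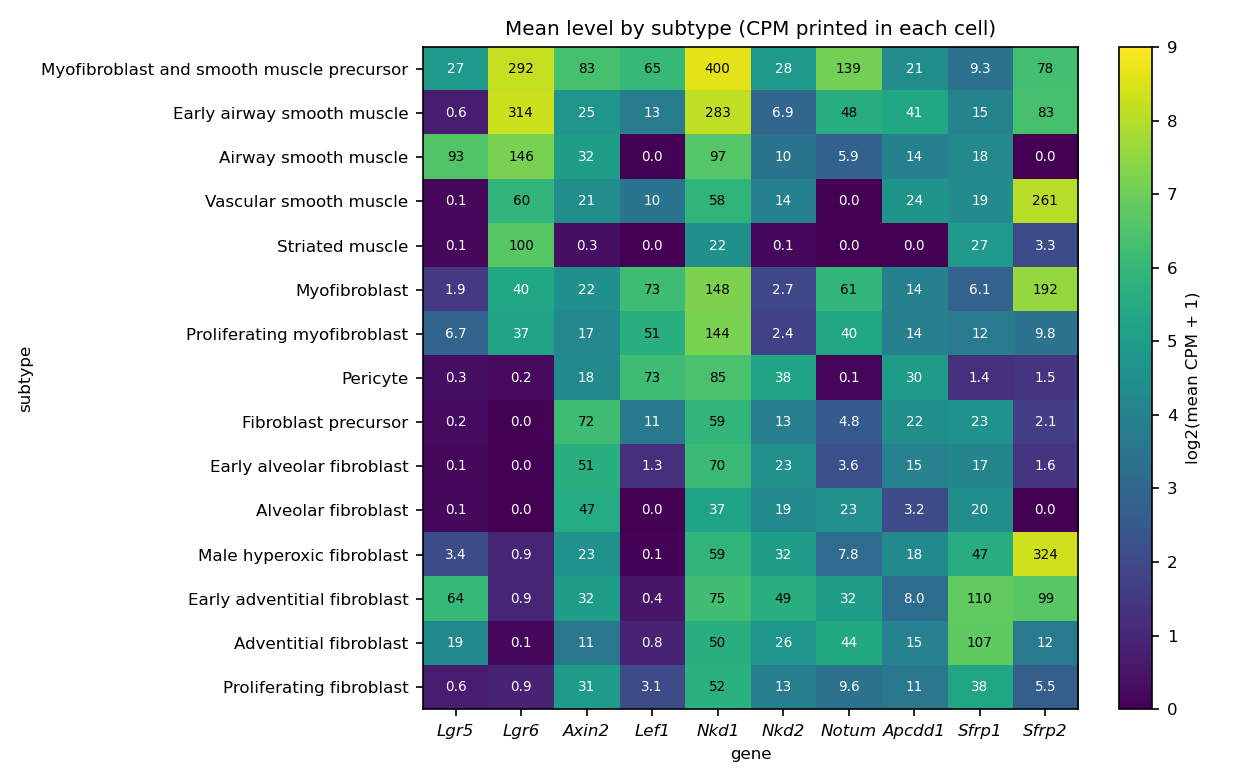
Mean CPM of each of the 10 genes (columns) in each of 15 subtypes (rows), printed in the cells and coloured by log2(mean CPM + 1). Nkd1 (400 CPM), Lgr6 (292 CPM) and Notum (139 CPM) stand out in the myofibroblast and smooth muscle precursors, and Sfrp1 (110 CPM) and Lgr5 (64.3 CPM) in early adventitial fibroblasts.

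Between genes, levels were compared per exon length, as RPKM, which is CPM divided by the exon length in kilobases. In the myofibroblast and smooth muscle precursors, Nkd1 led at 87.7 RPKM ± 12.9, followed by Notum (57.9 ± 2.14), Lgr6 (42.7 ± 3.39) and Sfrp2 (36.4 ± 2.99). Axin2 stood at 15.0 RPKM ± 1.82 and Lef1 at 7.35 ± 3.04. Nkd2, Lgr5, Sfrp1 and Apcdd1 were between 1.60 and 5.74 RPKM (n = 2 for each).

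Over the 64 sums, the gene most like Lgr6 among 12074 was Myocd (Pearson r = 0.89 of log2(CPM + 1)), a co-activator of smooth muscle genes, then Megf10 (0.85). Lgr5 was most like Lum (0.67), a matrix proteoglycan of fibroblasts, and 1500015O10Rik (0.67). Notum was most like Adcy7 (0.85) and Plekhg1 (0.84), and Lef1 was most like Egfem1 (0.77) and Trim36 (0.76). For Nkd1 these genes were Plscr3 and Foxf1 (both 0.71), the latter a lung mesenchymal transcription factor, and for Nkd2 they were Stat2 (0.70) and the ligand gene Wnt5b (0.69). Sfrp1 was most like Scrn1 (0.70) and the adventitial proteoglycan gene Dcn (0.69), and Sfrp2 was most like Synpo (0.71) and Jag1 (0.67). Axin2 (Scd2 0.66, Ccng2 0.65) and Apcdd1 (Chmp1b 0.62, Nit1 0.61) had the weakest partners. Among the 45 pairs of the 10 genes, Nkd1 and Notum had the highest correlation (0.54) and Lef1 and Sfrp1 the lowest (-0.57). These correlations are descriptions. The sums share mice, runs and depth.

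Ages were compared in normal air on reads summed per mouse, first over all cells and then within cell classes that join the early and later subtype of a kind. Levels in these comparisons are CPM normalised between mice, and adjusted p is from edgeR's quasi-likelihood test over all genes tested, with a threshold of 0.05. From E18.5 to P1, 0 of the 10 genes passed over all cells, where 1.23% of 17283 genes did. Unadjusted p was under 0.05 for 4 of the 10 and for 2103 of all 17283 genes. DESeq2 called 3 of the 10 and limma voom 0. Counts by these 2 tools are given here and below without their share of all genes. The median log2 change of the 10 genes was -0.37, against -0.01 over all genes. Axin2 was 82.2 and 56.0 CPM in the E18.5 mice and 30.5 and 31.8 at P1 (log2 change -1.13, SE 0.29, adjusted p = 0.115), without overlap. Lgr6 was 52.6 and 58.3 against 23.9 and 11.7 CPM (log2 change -1.65, SE 0.49, adjusted p = 0.174), and Sfrp1 was 22.4 and 19.0 against 80.6 and 36.7 CPM (log2 change 1.51, SE 0.44, adjusted p = 0.175).

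Between P1 and P7 over all cells 0 of the 10 genes passed, where 0.22% of genes did. An unadjusted p under 0.05 was found for 4 of them and for 1911 of all 17283 genes. DESeq2 and limma voom called 2 of the 10 each. The 10 genes' median was -0.13 and that of all genes 0.01. Lgr6 was 68.7 and 70.5 CPM at P7 (log2 change from P1 1.98, SE 0.49, adjusted p = 0.138), and Sfrp1 was 8.79 and 17.0 CPM (log2 change -2.19, SE 0.46, adjusted p = 0.1001). Lef1 was 22.9 and 24.7 CPM at P7 against 10.5 and 8.59 at P1 (adjusted p = 0.326). Groups did not overlap for any of the 3. How many of all genes had groups without overlap was not computed, here or in the other comparisons, so overlap is given as description only.

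From P7 to P21 Lgr5 and Sfrp1 rose over all cells: 2 of the 10 genes passed, where 9.97% of genes did. Unadjusted p was under 0.05 for 5 of the 10 and for 4534 of all 17283 genes. The 10 genes' median log2 change was 0.65 and that of all genes 0.03. Lgr5 was 3.30 and 7.47 CPM at P7 and 25.4 and 21.7 at P21 (log2 change 2.09, SE 0.57, adjusted p = 0.0468). All P21 values lay above all P7 values. Within the run that the males shared, in the mesenchymal sort, Lgr5 was 7.78 CPM at P7 and 18.6 at P21. The log2 change was 1.40 without the P7 female and 3.08 without the P7 male. This call stood close to the threshold. Over its 20 alternatives the adjusted p ranged from 8.01e-04 to 0.217, and leaving out any 1 of the 10 mice ended the call, from 0.0517 without the P1 male to 0.217 without the P7 female. It was also lost with the cells of the mesenchymal sort only (0.0517). Sfrp1 was 8.79 and 17.0 CPM at P7 and 52.8 and 50.6 at P21 (log2 change 2.01, SE 0.45, adjusted p = 0.0227). Within the males' run it was 17.7 CPM at P7 and 43.5 at P21. Its call was lost without the P7 female (log2 change 1.50, adjusted p = 0.150) and without the P7 male (2.67, 0.0533), and held without each other mouse. Axin2 stood just outside the threshold, at 17.6 and 17.5 CPM against 38.8 and 32.3 (log2 change 1.01, SE 0.29, adjusted p = 0.0535), and it passed without the sex term (0.0382), with edgeR's newer quasi-likelihood method (0.0471) and in DESeq2 (0.0128). Lgr6 was 20.5 and 49.8 CPM at P21.

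The Lgr5 reads were split among subtypes as follows. At P7 early adventitial fibroblasts held 62.9% (female) and 70.2% (male) of a mouse's Lgr5 reads while making up 8.09% and 9.65% of its cells. At P21 airway smooth muscle held 62.5% and 48.2% of the Lgr5 reads with 11.1% and 17.7% of the cells. Adventitial fibroblasts held 15.7% and 51.3%, and in the female early adventitial fibroblasts held a further 21.1%. Adventitial subtypes held most of the Sfrp1 reads. At P7 early adventitial fibroblasts held 65.0% and 76.2% of them, and at P21 adventitial fibroblasts held 74.5% and 87.1% with 29.2% and 27.3% of the cells. Within the males' run, Sfrp1 in the adventitial class was 133 CPM at P7 and 108 at P21, so it did not rise there. In the alveolar class of that run it was 3.20 and 9.59 CPM. The summed adventitial markers (5 of 5 detected) were 715 to 869 CPM over all cells at P7 and 5720 to 7256 at P21, and the dividing-cell markers (4 of 4) were 362 to 543 and 5.10 to 5.38. Their part in the Sfrp1 and Lgr5 results was not tested. Lgr6 reads at E18.5 were almost all in the myofibroblast and smooth muscle precursors (99.2% and 98.8%). At P21 airway smooth muscle held 68.9% and 63.5% of them.

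**Figure D3:**
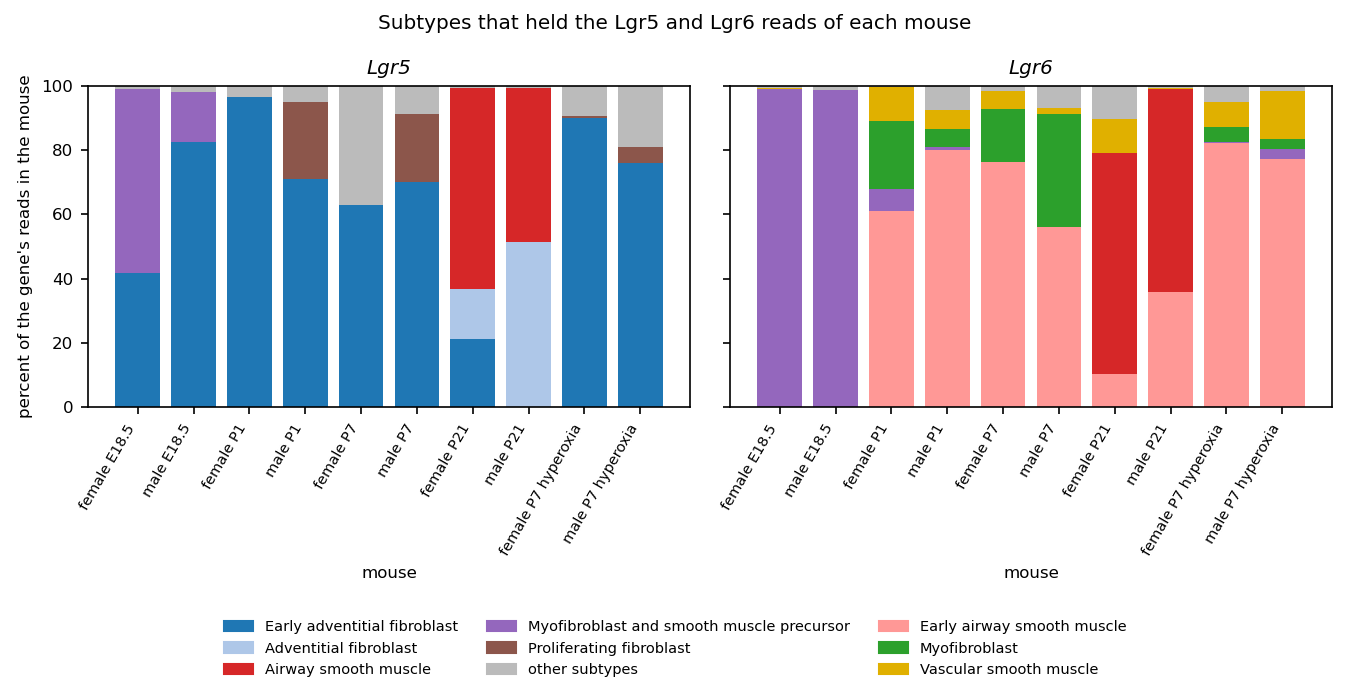
Percent of a mouse's Lgr5 reads (left) and Lgr6 reads (right) that lay in each subtype, as stacked bars for the 10 mice. The main holder of Lgr5 reads at P7 in air was the early adventitial fibroblast (62.9% and 70.2%), and airway smooth muscle held 62.5% and 48.2% at P21.

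Among cells labelled alveolar fibroblasts, Nkd2 and Sfrp1 were higher at P1 than at E18.5: 2 of the 9 genes tested passed, where 6.16% of 15670 genes did. Sfrp1 was 41.0 and 37.2 CPM at P1 and 0 and 0.173 at E18.5, where 2 reads came from 1 cell. The ratio was 325 (95% interval 89.9 to 2681, for counting error only; adjusted p = 0.0315). Nkd2 was 22.3 and 32.8 CPM at P1, with a read in 122 of 755 cells (16.2%). At E18.5 it had 0 reads in 38 cells, which allows a share of up to 7.89%. Taking 3 reads over the group as the floor, its level was at least 161-fold higher at P1, for counting error only (adjusted p = 0.0335). This bound leaves out which cells were sampled. The 17305 reads at P1 lay in those 122 cells, and 1 such cell among the 38 at E18.5 would lower the bound. Fibroblast precursors, a separate label with 425 cells of the female and 335 of the male at E18.5, are not in this class. Over all E18.5 cells of the mesenchymal sort, Nkd2 was 17.6 CPM (female) and 20.5 (male), and Sfrp1 was 23.9 and 19.9. The part of the labelling in these 2 results was not tested. The E18.5 side of the alveolar class was thin, with 14 cells of the female and 24 of the male, a median of 305908 reads per cell, and a median change of all genes of 1.35 on the log2 scale. In those E18.5 cells the epithelial markers (3 of 6 detected, Epcam, Krt18 and Nkx2-1 at 0) summed to 25.9 to 1031 CPM, against 98.3 to 118 at P1. Immune markers (3 of 6 detected, Ptprc, Cd3e and Cd79a at 0) summed to 9.28 to 286 CPM, against 8.73 to 11.9. Their part in the Nkd2 and Sfrp1 results was not tested. E18.5 and P1 mice of each sex shared a run, so these values also stand within runs: in the mesenchymal sort, Nkd2 was 22.9 CPM (female) and 32.2 (male) at P1 and had 0 reads in both at E18.5. Both calls were lost when any mouse other than the 2 E18.5 mice was left out, with adjusted p from 0.0578 without the P21 male to 0.162 without the P1 male. Both were also lost with only the 4 compared mice in the fit (0.572) and with the early subtype only (0.0565).

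In the same fit Apcdd1 had 0 reads at E18.5 and stood at 12.4 and 14.1 CPM at P1 (adjusted p = 0.0501), and Notum was 3.94 and 3.41 CPM against 0 reads (0.0692). Axin2 was 35.6 and 37.2 CPM at P1 against 105 and 140 at E18.5 (adjusted p = 0.215). It was 22.0 and 17.6 CPM at P7 and 62.6 and 47.2 at P21. From P1 to P7 and from P7 to P21, 0 of the 9 genes passed in alveolar fibroblasts, where 0% and 0.0702% of genes did. At an unadjusted p under 0.05 there were 1 and 3 of them, and 370 and 1118 of all 15670 genes. DESeq2 called 1 and 4, and limma voom called 0 in both. Sfrp1 was 2.33 and 3.11 CPM at P7 and 33.4 and 12.5 at P21 (log2 change 3.12, SE 1.21, adjusted p = 0.673). Notum was 5.67 and 0.817 CPM at P7 and 29.2 and 33.0 at P21 (log2 change 3.58, SE 1.44, adjusted p = 0.683). For both, the P21 mice lay above the P7 mice.

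In airway smooth muscle Sfrp2 fell between P7 and P21: 1 of the 10 genes passed, where 1.13% of 13496 genes did. It was 71.7 and 86.9 CPM at P7, with a read in 32 of 139 cells (23.0%). At P21 it had 3 reads in the female, 0.0656 CPM, and 0 in the male, with a read in 2 of 119 cells (1.68%). The ratio of P7 to P21 was 2836 (95% interval 970.1 to 13753, for counting error only; adjusted p = 0.0048). Over its 18 alternatives the adjusted p ran from 1.18e-20 to 0.0580, the latter with only the 4 compared mice in the fit, and leaving out any 1 mouse kept the call. Within the males' run Sfrp2 was 91.1 CPM at P7 and had 0 reads at P21. The 10 genes' median log2 change was -0.94, against -0.09 over all genes.

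Lgr5 went the other way in airway smooth muscle without passing. It was 2.62 and 0.107 CPM at P7 and 142 and 65.9 at P21 (log2 change 6.40, SE 1.88, adjusted p = 0.228). Of its 18 alternatives 4 called it: DESeq2, limma voom, the mean of single-cell CPM, and edgeR's newer quasi-likelihood method, with adjusted p from 2.06e-04 to 0.0369. Of the 301 Lgr5 reads at P7, 97.0% came from 1 cell, whereas 34 of 119 cells (28.6%) had a read at P21. Lef1 was 17.6 and 7.79 CPM at P7 and 0 and 0.1 at P21 (adjusted p = 0.332). Nkd1 was 258 and 326 CPM against 79.9 and 180 (adjusted p = 0.389). The adventitial marker sum in these cells was 219 to 274 CPM at P7 (4 of 5 detected, Ly6a at 0) and 1038 to 1448 at P21 (3 of 5 detected, Pi16 and Ly6a at 0), and their airway muscle marker sum (5 of 5) was 15416 to 18988 and 8624 to 9517. The part of these markers in the Sfrp2 and Lgr5 values was not tested. From P1 to P7, 0 genes passed, where 0% of genes did. Notum was 80.6 and 79.4 CPM at P1 and 17.8 and 17.1 at P7 (log2 change -2.20, SE 0.80, unadjusted p = 0.0229, adjusted p = 0.919). It was the 1 gene of the 10 at an unadjusted p under 0.05, and 709 of all 13496 genes had such a p. DESeq2 called 1 of the 10 and limma voom 0.

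In adventitial fibroblasts Lgr5 was 117 and 159 CPM in the E18.5 mice, 69.6 and 47.1 in the P1 mice, 24.3 and 54.9 in the P7 mice in air and 26.3 and 33.4 in the P21 mice. The E18.5 mice lay above all others, but 0 of the 10 genes passed at any of the 3 steps, where 0.17%, 0% and 0.124% of genes did. Unadjusted p was under 0.05 for 3, 1 and 0 of them, and for 1411, 856 and 1554 of all 15289 genes. DESeq2 called 1, 0 and 0 of the 10, and limma voom called 0 in all. The Lgr5 reads sat in few cells: 15 of 55 at E18.5, with 43.9% of the reads of both mice together from 1 cell. Within each E18.5 mouse 1 cell gave most of the Lgr5 reads, as stated above. The high E18.5 levels thus rest largely on 1 cell of each mouse. Axin2 was 104 and 42.8 CPM at E18.5 against 12.9 and 13.7 at P1 (adjusted p = 0.341), and Notum was 54.5 and 66.2 against 14.8 and 20.9 (adjusted p = 0.527).

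The vessel wall and the myofibroblasts showed 0 calls. In vascular smooth muscle, where 0% of genes passed from P1 to P7 and 0.0886% from P7 to P21, Sfrp2 was 33.6 and 8.19 CPM at P1, 271 and 283 at P7 and 133 and 6.43 at P21. The adjusted p was 0.991 and 0.580. Unadjusted p was under 0.05 for 2 of 8 genes tested at each step, Sfrp2 and Apcdd1, which DESeq2 called and limma voom did not. Of all 12417 genes, 463 and 895 had such a p at these steps. Apcdd1 was 88.5 and 47.0 CPM at P1, 0.109 and 0 at P7 and 4.42 and 28.5 at P21, and 64.8% of its P1 reads came from 1 cell. In pericytes Lef1 was 38.3 and 73.9 CPM at P7 and 138 and 220 at P21, with a read in 36.8% and 59.3% of cells. Among 6 genes tested in pericytes, 0 passed at any step by edgeR, at an unadjusted p under 0.05, by DESeq2 or by limma voom. By edgeR 0.042%, 0% and 0.0504% of genes passed, and 642, 475 and 554 of all 11894 genes had an unadjusted p under 0.05. In myofibroblasts 0 of 10 passed from P1 to P7, where 0% of genes did. An unadjusted p under 0.05 was found for 3 of the 10 and for 1072 of all 13380 genes, and DESeq2 called 3 of the 10 and limma voom 0. Notum there was 113 and 42.5 CPM at P1 and 25.7 and 10.6 at P7 (log2 change -2.08, SE 0.51, adjusted p = 0.533).

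Hyperoxia at P7 gave 0 calls among the 10 genes, over all cells and in each of the 5 cell classes tested. Over all cells 0.243% of genes passed, and within the classes 0% did. Over all cells 3 of the 10 and 2130 of all 17283 genes had an unadjusted p under 0.05. DESeq2 called 1 of the 10 and limma voom 0. The median log2 change of the 10 genes was 0.16, against 0.00 over all genes. Sfrp1 was 38.6 and 56.3 CPM in hyperoxia and 8.79 and 17.0 in air (log2 change 1.88, SE 0.45, adjusted p = 0.139). Lgr6 was 34.5 and 20.2 against 68.7 and 70.5 CPM (log2 change -1.36, SE 0.48, adjusted p = 0.304). Sfrp2 was 74.9 and 219 against 33.1 and 27.7 CPM (log2 change 2.44, SE 1.06, adjusted p = 0.388). Groups did not overlap for these 3 genes, and the share of all genes without overlap was not computed. Mesothelial markers (4 of 4 detected), which mark the lining of the lung surface, summed to 126 to 145 CPM over all cells in hyperoxia and to 0.379 to 19.1 in air. Early adventitial fibroblasts made up 21.4% and 21.1% of the hyperoxic cells and held 63.9% and 52.3% of the Sfrp1 reads. Their part in the Sfrp1 values was not tested.

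In myofibroblasts Notum was 88.0 and 80.4 CPM in hyperoxia and 25.7 and 10.6 in air (log2 change 2.39, SE 0.52, unadjusted p = 0.00298, adjusted p = 0.442). A Notum read was found in 55 of 103 hyperoxic myofibroblasts (53.4%) and in 34 of 339 in air (10.0%), and at a fixed 100000 reads the shares were 48.0% and 8.59%. Lef1 was 106 and 115 CPM against 57.8 and 36.9 (log2 change 1.30, SE 0.46, adjusted p = 0.758), with a read in 79.6% and 32.7% of cells. Lgr6 was 12.9 and 7.05 CPM against 48.3 and 71.7 (log2 change -2.83, SE 0.89, adjusted p = 0.690), with a read in 7.77% and 33.3%. These were the 3 genes of the 10 at an unadjusted p under 0.05, and 847 of all 13380 genes had such a p. DESeq2 called Lgr6 and Notum, and limma voom called 0. Dividing-cell markers in these cells summed to 37.5 to 37.7 CPM in hyperoxia and 131 to 240 in air, and their part was not tested. Lgr6 in airway smooth muscle was 264 and 410 CPM in hyperoxia and 326 and 375 in air, which overlap. Sfrp2 in myofibroblasts was 20.1 CPM in the hyperoxic female and 1075 in the hyperoxic male, and 96.6% of the hyperoxic reads came from 1 cell.

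Among fibroblasts, Sfrp1 in alveolar fibroblasts was 15.0 and 26.3 CPM in hyperoxia and 2.33 and 3.11 in air (log2 change 2.92, SE 1.18, adjusted p = 1.00), with a read in 17.2% and 3.01% of cells. Nkd1 was 104 and 93.9 against 45.8 and 53.0 CPM, with a read in 59.7% and 24.4% of cells and, for the early subtype alone, in 57.2% and 23.7% at a fixed 100000 reads. In adventitial fibroblasts Lgr5 was 13.1 and 10.4 CPM in hyperoxia and 24.3 and 54.9 in air (log2 change -1.70, SE 0.53, unadjusted p = 0.00915, adjusted p = 0.621). An Lgr5 read was found in 19.9% and 17.9% of these cells. Mesothelial markers in this class summed to 575 to 654 CPM in hyperoxia and 0.0648 to 208 in air, and their part was not tested. In vascular smooth muscle Sfrp2 was 771 and 412 CPM in hyperoxia and 271 and 283 in air. Unadjusted p was under 0.05 for 1 gene each in alveolar and adventitial fibroblasts and vascular smooth muscle and for 0 in airway smooth muscle. Of all genes, 420 of 15670, 1224 of 15289, 319 of 12417 and 418 of 13496 had such a p, in that order. DESeq2 called 1, 0, 1 and 0 in that order, and limma voom called 0 in each.

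**Figure D4:**
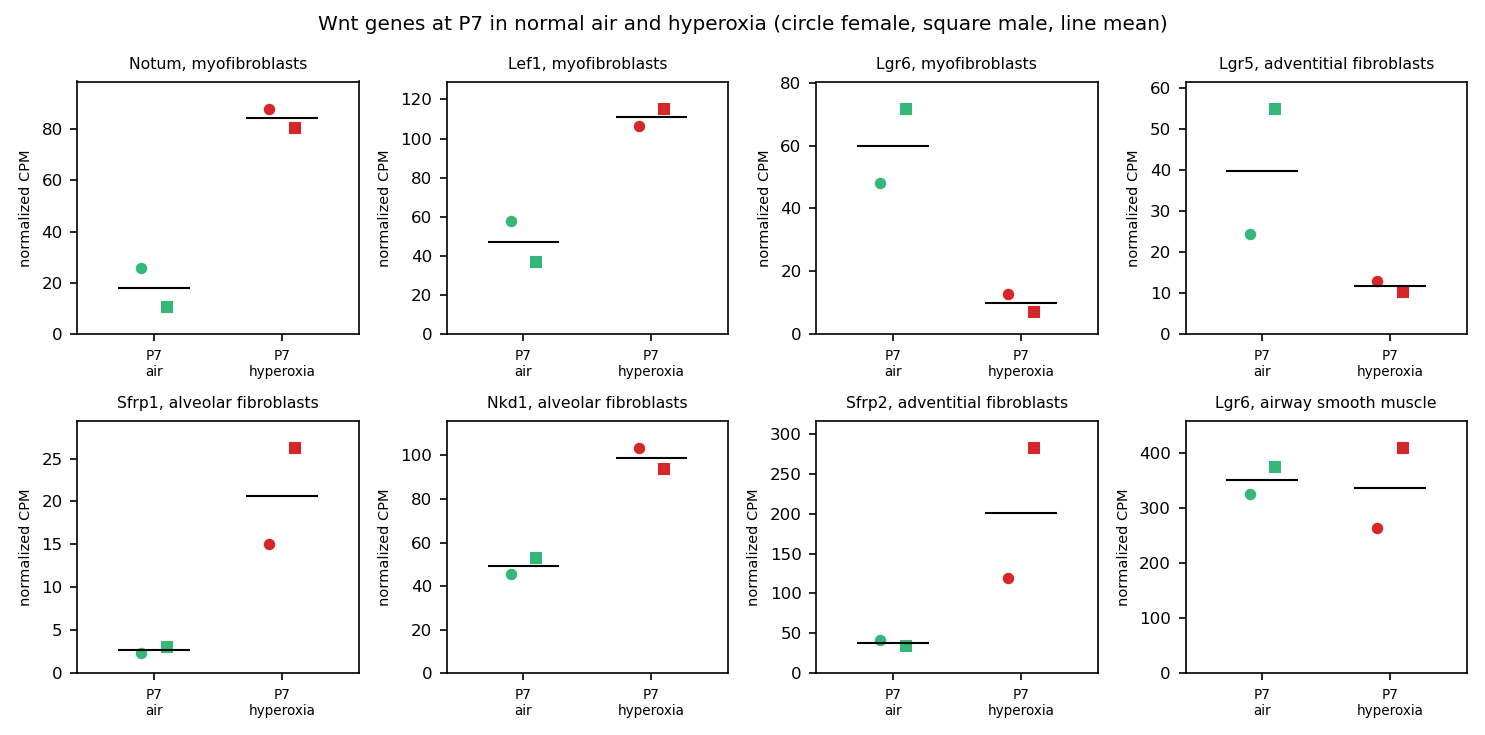
Normalised CPM (vertical axis, starting at 0) at P7 in normal air and in hyperoxia for 8 combinations of gene and cell class, with 1 point per mouse (circle female, square male) and a line at the mean. Myofibroblast Notum lies at 88.0 and 80.4 CPM in hyperoxia and 25.7 and 10.6 in air, whereas Lgr6 in airway smooth muscle overlaps between the groups.

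Whether hyperoxia acted differently between classes was tested directly for 3 pairs of classes, and 0 of the 9, 10 and 10 genes tested passed. The share of all genes called was 0% for alveolar against adventitial fibroblasts, 0.013% for alveolar fibroblasts against myofibroblasts and 0% for adventitial fibroblasts against myofibroblasts. Unadjusted p was under 0.05 for 1, 0 and 2 of these genes. Over all genes it was so for 1064 of 15587, 896 of 15393 and 1045 of 14964. DESeq2 called 1, 0 and 2 of the set, and limma voom called 0 in each. For Sfrp1, the change in alveolar fibroblasts exceeded that in adventitial fibroblasts by 2.54 on the log2 scale (SE 0.43, unadjusted p = 0.00193, adjusted p = 0.577). For Notum, the adventitial change was below the myofibroblast change by a log2 difference of -2.19 (adjusted p = 0.569). Lgr6 was the other gene at an unadjusted p under 0.05 there (adjusted p = 0.639), and its adventitial reads were 0 in air and 19 in hyperoxia, so no size is given. The difference between alveolar and adventitial fibroblasts in the step from P7 to P21 was tested too, with 0 of 9 genes passing where 0.0668% of genes did. Sfrp1 was the 1 gene of these at an unadjusted p under 0.05 (log2 difference 2.56, adjusted p = 0.843), and 788 of all 14980 genes had such a p. DESeq2 called 1 of the 9 and limma voom 0.

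Other genes of the pathway were followed through 5 lists. Over all cells from P7 to P21, 2 of 16 ligand genes rose and 2 fell, where 9.97% of all genes passed, 932 higher and 791 lower. Cell makeup differed between these ages. Myofibroblasts numbered 155 (female) and 184 (male) at P7 in air and 0 in both mice at P21. Adventitial fibroblasts numbered 50 and 56 at P7 and 161 and 86 at P21. The part of this makeup in the changes below was not tested. Wnt4 rose from 11.0 CPM ± 6.47 to 69.6 ± 5.47 (n = 2, adjusted p = 0.0164) and Rspo2, an R-spondin and so a ligand of Lgr5 and Lgr6, fell from 19.5 ± 7.51 to 1.96 ± 1.79 (n = 2, adjusted p = 0.0159). Of 13 other common targets 1 rose and 3 fell, of 19 genes of the beta-catenin machinery 3 fell, and of 18 receptors and 11 secreted antagonists 1 each fell. Tcf7, a factor of the TCF/LEF family, counts among the targets and the machinery. Medians of these lists were 0.36, -0.39, -0.14, 0.64 and 0.04, against 0.03 over all genes. The antagonist that fell was Sostdc1 and the target with the largest drop on the log2 scale was Sp5, both from low levels: 7.72 CPM ± 6.76 to 0.119 ± 0.112 and 0.520 ± 0.344 to 0.0108 ± 0.0015 (n = 2 each, adjusted p = 0.0182 and 0.0493). From E18.5 to P1, 1 target and 1 ligand rose, where 1.23% of all genes passed, 160 higher and 53 lower. The target was Cd44, a cell adhesion receptor, at 261 CPM ± 31.9 against 106 ± 6.15 (n = 2 each, adjusted p = 0.0303), and the ligand was Wnt4, at 17.7 ± 10.6 against 0.995 ± 0.360 (n = 2 each, adjusted p = 0.00965). From P1 to P7, 0 genes of the lists passed over all cells.

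In alveolar fibroblasts from E18.5 to P1, 3 of 14 ligands, 2 of 9 antagonists and 2 of 19 machinery genes rose. Of all genes 6.16% passed there, 956 higher and 10 lower, and their median change was 1.35 on the log2 scale. The co-repressor Tle2 was 43.2 CPM ± 10.5 at P1, the ligand Wnt5b 19.3 ± 1.81, the signal relay Dvl1 18.9 ± 7.79 and Kremen1, a receptor for Dkk antagonists, 8.96 ± 3.85 (n = 2 each, adjusted p = 0.0291, 0.0295, 0.0316 and 0.0386). Each of these 4 had no read at E18.5. These are the same 38 E18.5 cells as above. In airway smooth muscle from P7 to P21, where 1.13% of all genes passed, the target Wisp1 fell from 90.7 CPM ± 8.13 to 0 reads and the antagonist Sfrp4 from 41.8 ± 23.9 to 0.0109 ± 0.0155 (n = 2 each, adjusted p = 0.00306 and 0.0381). The growth regulator Myc rose there from 75.3 ± 29.2 to 1321 ± 634 CPM (n = 2, adjusted p = 0.0188). Under hyperoxia 0.243% of all genes passed over all cells and 0% in each class. The 1 gene of all lists that passed was Znrf3, the membrane enzyme whose action R-spondins block, which rose over all cells from 68.2 CPM ± 9.23 in air to 192 ± 30.8 (n = 2, log2 change 1.49, adjusted p = 0.0486). Lists other than these had 0 calls in those comparisons.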

How the data were processed

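Distal lung mesenchymal cells of 10 mice were sequenced cell by cell. The deposited values are whole-number read counts per gene and cell that the authors had not normalised, and no molecular identifiers are named, so intervals cover counting error only. Per the labels' protocols, no RNA extraction was done and libraries were made in plates with Tn5 transposase. Per the submitters' processing notes, STAR 2.5.2b and HTSeq 0.10 were used. These notes name build GRCh38, a human build, so what the reads were counted on is uncertain, and mouse coordinates here come from separate annotation. Counting of strand and of overlapping genes is not given in the sources used here.

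Counts were summed per mouse and class (at least 10 cells) in R 4.3.3. With edgeR 4.0.16, sums were TMM-normalised, low genes dropped by filterByExpr, and group and sex fitted by quasi-likelihood (legacy = TRUE, two-sided). All groups with enough cells shared a fit, which left 2 to 4 degrees of freedom. Differences between classes used 4 mice with the mouse as a block. P-values were adjusted by the Benjamini-Hochberg method over all genes. The classes joined early and later subtypes. Sex is also the replicate number. DESeq2 1.42.0, limma 3.58.1, other filters and scalings, and leaving out each mouse were alternatives. The steps were tested on simulated data. Shares were recomputed after thinning cells to 100000 reads, which left out 168 cells. No doublet caller was run.

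Named were all 10 genes, the 2 genes most like each, and the called genes of the lists, at most 4 per comparison by size of change. The genes and lists were chosen with earlier results of these data known.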

Additional observations from a re-analysis of the deposited data

Results flagged for a closer look

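In 19 pairs of cell classes, both mice of one class lay higher and both mice of the other lay lower in the same contrast. None of these differences was tested, and none of the underlying changes passed edgeR's test except that of Nkd2 in alveolar fibroblasts. Class pairs that had been tested directly were left out, and so were genes under 10 CPM in both groups of a class. How many such pairs all genes would give was not computed. The number of pairs is therefore description only, and with 2 mice per group it does not show that classes differed. Each value is the difference between the classes' changes in log2(mean normalised CPM + 1).

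Apcdd1 accounted for 8 of the 19. From P7 to P21 it was higher in vascular smooth muscle and lower in alveolar fibroblasts (difference 6.29) and airway smooth muscle (5.40), and it was higher in pericytes while lower in those same classes (3.38 and 2.49). From P1 to P7 it was lower in vascular smooth muscle while it was higher in alveolar fibroblasts (6.63), myofibroblasts (9.14) and airway smooth muscle (6.78). Under hyperoxia vascular smooth muscle was higher and myofibroblasts were lower (4.51). All vascular values rest on 1 to 4 cells with a read in each group.

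Axin2 was higher at P21 than at P7 in pericytes and lower in adventitial fibroblasts (2.13). It was higher at P7 than at P1 in adventitial and lower in alveolar fibroblasts (1.65), and under hyperoxia it was higher in airway smooth muscle and lower in adventitial fibroblasts (1.74). Lef1 was higher at P21 in pericytes and lower in airway smooth muscle (5.36). Notum was higher at P21 in alveolar fibroblasts and lower in airway smooth muscle (4.19). Nkd1 from P1 to P7 was higher in airway smooth muscle and lower in alveolar fibroblasts (1.02).

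Nkd2 from E18.5 to P1 was higher in alveolar fibroblasts and lower in pericytes (7.53), and from P1 to P7 higher in pericytes and lower in vascular smooth muscle (3.84). Sfrp2 from P1 to P7 was lower in adventitial fibroblasts and higher in myofibroblasts (3.68), airway smooth muscle (2.14) and vascular smooth muscle (5.00).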

How the results depend on the processing

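Each count below is the number of the 10 genes that passed, and the cause of each change was not tested. The share of all genes that passed under each alternative is not given here. DESeq2 called 3 over all cells from E18.5 to P1, 2 from P1 to P7, 4 from P7 to P21 (Axin2, Lgr5, Notum and Sfrp1) and 1 under hyperoxia. In alveolar fibroblasts it called 5, 1, 4 and 1 at these steps, and in adventitial fibroblasts 1 from E18.5 to P1. In myofibroblasts it called 3 from P1 to P7 and 2 under hyperoxia. In airway smooth muscle it called 1 from P1 to P7 and 3 from P7 to P21, and in vascular smooth muscle 2, 2 and, under hyperoxia, 1. Of the differences between classes under hyperoxia it called 1 for alveolar against adventitial fibroblasts and 2 for adventitial fibroblasts against myofibroblasts, and 1 for the P7 to P21 step of alveolar against adventitial fibroblasts. Limma voom called 2 over all cells from P1 to P7 (Lgr6 and Sfrp1), 2 over all cells from P7 to P21 (Lgr5 and Sfrp1), 3 in alveolar fibroblasts from E18.5 to P1 (Nkd2, Apcdd1 and Sfrp1), 2 in airway smooth muscle from P7 to P21 (Lgr5 and Sfrp2) and 0 in every other comparison.

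The replicate number is the mouse's sex. For the mesenchymal sort the labels put the air males of all 4 ages in 1 run and the air females in 3, so in air sex and run largely go together. Without this replicate block, alveolar fibroblasts gave 4 calls from E18.5 to P1 (Nkd2, Notum, Apcdd1 and Sfrp1), and Axin2 passed over all cells from P7 to P21 (adjusted p = 0.0382). It changed no other call of the 10 genes. With only the 4 compared mice, 2 genes passed over all cells from P1 to P7, and 0 passed in alveolar fibroblasts from E18.5 to P1 and in airway smooth muscle from P7 to P21, on fewer samples. With the mesenchymal sort only, 1 gene, Sfrp1, passed over all cells from P7 to P21. The mean of single-cell CPM gave 4 calls in alveolar fibroblasts from E18.5 to P1 and 2 in airway smooth muscle from P7 to P21. The early alveolar subtype alone gave 0. The newer quasi-likelihood method of edgeR (legacy = FALSE), chosen after seeing the data, gave 1 call over all cells from P1 to P7 (Sfrp1), 0 in alveolar fibroblasts from E18.5 to P1 (adjusted p 0.263 for Nkd2 and 0.190 for Sfrp1) and 2 in airway smooth muscle from P7 to P21.

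Leaving out 1 mouse at a time gave 0 to 1 calls over all cells from E18.5 to P1, 0 to 2 from P1 to P7 and 0 to 3 from P7 to P21 (0 without the P7 male). It gave 0 to 6 in alveolar fibroblasts from E18.5 to P1 (6 without the E18.5 female), 0 to 2 in myofibroblasts both from P1 to P7 and under hyperoxia, and 0 to 2 for alveolar against adventitial fibroblasts under hyperoxia (2 without the P7 female in air). The mean level of Notum in the precursors was 132 CPM after TMM scaling, against 139. Values for single genes were followed only where the main fit gave an unadjusted p under 0.05, with a stricter bound for differences between classes. Of these values, 822 kept direction and side of the threshold, 63 passed it anew, 36 no longer passed and 0 reversed. The genes were thus picked by p in these same data, so the absence of reversals is description only. The subtype with the highest mean changed for Nkd2 (adventitial fibroblasts, 55.4, by mean single-cell CPM) and Sfrp1 (adventitial fibroblasts, 109.9 by mean single-cell CPM and 131 after TMM scaling). With 2 mice in a group, the number of mice limits the precision.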

Other observations

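Single cells carried much of several levels. Of the Nkd2 reads in alveolar fibroblasts at P7 in air, 36.9% came from 1 of 365 cells, and of the Sfrp2 reads in adventitial fibroblasts at P21, 67.5% came from 1 of 247 cells. Of the Sfrp1 reads over all cells at P7 in air, 13.2% came from 1 of 1176 cells.

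Axin2 was read in 581 of 1060 hyperoxic cells (54.8%) and in 380 of 1176 cells at P7 in air (32.3%), while its normalised level was 20.6 and 22.2 CPM in hyperoxia and 17.6 and 17.5 in air. In alveolar fibroblasts the share was 61.5% and 34.8%, and the level 22.3 and 24.3 against 22.0 and 17.6 CPM. Median depth was lower in the hyperoxic female (521125 reads per cell) than in the female in air (1084627).

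Striated muscle, with 18 cells in all, had an Lgr6 read in 5 of them (27.8%; 95% Wilson interval 12.5 to 50.9).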
